A study of Homo sapiens with 12 samples.

Results

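The genes described here make amino acids, carry them into the cell and load them onto tRNAs. They comprise 40 genes, listed by name with earlier results of these data known: 19 cytosolic aminoacyl-tRNA synthetases, 14 enzymes of amino acid synthesis and the folate reactions tied to it, and 7 amino acid transporters. All 40 were found under their current symbols among the 19973 genes of the deposited table. RNA was sequenced from H460 and A549, both human non-small cell lung carcinoma (NSCLC) lines with the genotype given as WT. The authors nevertheless describe both lines as homozygous for inactivating mutations of KEAP1. In each line, cells were either non-treated (control) or exposed to 10 µM of ISP-I (isovalerylspiramycin I, a macrolide) for 48 h. There were 12 libraries, 3 in each group. No vehicle is named for the control cells of these libraries, and ISP-I was dissolved in DMSO. Each group is 1 cell line at a single dose and time, and the labels do not say that replicates were separate cultures, so p values measure the spread between these libraries, which may be technical. Values are FPKM, read counts scaled to the length of the gene and to the reads that the library had on all genes.

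Aminoacyl-tRNA synthetases join each amino acid to its tRNA before translation, and several of the cytosolic ones sit together in a multi-synthetase complex. Cells make serine from a glycolytic intermediate through PHGDH, PSAT1 and PSPH. The SHMT enzymes turn serine into glycine and pass a carbon unit to folate, which MTHFD2 and its relatives carry on toward purine and thymidylate synthesis. Many of these genes, with SLC7A11, SLC7A5 and SLC3A2 among the transporters, are known targets of ATF4, the transcription factor of the integrated stress response. ATF4 binds with a C/EBP partner to a composite element whose core was searched here as TGATGNAA.

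The start sites of 31 members were in the RefSeq promoter table (GRCh38.p14), and TGATGNAA occurred on either strand, from 250 bases before to 50 bases after the start, in 10 of them (32.3%). It occurred in 1270 of all 35116 promoters of the same length (3.62%). By class, 6 of 16 synthetases, 2 of 9 synthesis enzymes and 2 of 6 transporters held it. The 30-base stretch around each is shown on the gene's own strand. The members shown were picked for holding the match, so sharing it follows from that selection. The motif was not used to list the members by name. Many of them are known ATF4 targets, however, so the list is not shown to be independent of this element. Capitals mark the match, and the reverse complement of the motif appears as TTNCATCA.
AARS1 (chr16:70289675-70289704, minus strand): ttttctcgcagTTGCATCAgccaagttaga
CARS1 (chr11:3057407-3057436, minus strand): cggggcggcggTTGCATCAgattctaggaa
IARS1 (chr9:92293692-92293721, minus strand): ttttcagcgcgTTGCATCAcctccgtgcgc
MARS1 (chr12:57488053-57488082, plus strand): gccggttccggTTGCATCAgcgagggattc
NARS1 (chr18:57621804-57621833, minus strand): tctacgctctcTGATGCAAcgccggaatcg
TARS1 (chr5:33440956-33440985, plus strand): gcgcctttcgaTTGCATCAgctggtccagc
ASNS (chr7:97872458-97872487, minus strand): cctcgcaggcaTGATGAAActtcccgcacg
MTHFD1L (chr6:150866346-150866375, plus strand): gccgccggctcTGATGCAAtcgcgccgggc
SLC3A2 (chr11:62881719-62881748, plus strand): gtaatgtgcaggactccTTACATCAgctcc
SLC7A1 (chr13:29595663-29595692, minus strand): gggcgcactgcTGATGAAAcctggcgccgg
In AARS1 the match lies 187 to 180 bases before the start, in ASNS 68 to 61 bases before it, and in SLC3A2 at bases 38 to 45 counted from it. LARS1, VARS1, YARS1, PSPH, SHMT2, ALDH1L2, PYCR1, GPT2 and SLC7A11 were not in that table. A match is a description of these letters and no evidence of binding.

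The libraries held 14225849 to 17874422 reads on genes, recovered from the FPKM values, which were whole reads for 100% of the entries to within 0.05 reads. Both lines carried epithelial KRT8 and KRT18, while EPCAM and CDH1 were at or near 0 in H460 and at 1.91 and 4.90 FPKM in A549 controls. Markers of alveolar type II cells, 6 in all, stayed at or under 0.301 FPKM in every group, as did leukocyte, endothelial and fibroblast markers apart from CD14, at 5.92 FPKM in H460 controls, and COL1A1, at 1.19 there. Because these are bulk libraries, fewer cells using a gene and less RNA per cell cannot be told apart. Of all genes tested in H460, the median log2 change was -0.15, and scaling by median-of-ratios moved it to 0.014. The same scaling moved well-expressed members by more, such as AARS1 from -1.06 to -0.79 and SHMT2 from -1.15 to -0.88. The changes in H460 thus stand against a shift that the median alone does not give in full. In A549 the median was 0.020. Library 3 of the A549 controls and library 3 of H460 with ISP-I stood apart from their groups, and their deviations, set beside the GC content of the transcripts, are given with the synthetases.

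Of the synthesis enzymes, 7 of 14 were called lower after ISP-I in H460 and 5 in A549, of the transporters 1 and 3 of 7, and of the cytosolic synthetases 3 and 0 of 19. A member was called when it changed over 2-fold at an adjusted p under 0.05 (limma on log2(FPKM + 1), Benjamini-Hochberg adjustment over all genes tested). In H460, 1 of the 40 members was called higher, beside 10.5% of all 13423 genes tested, and 11 were called lower, beside 15.2%. In A549, none was called higher, beside 4.20% of 13705 genes, and 8 were called lower, beside 3.51%. At an unadjusted p under 0.05 and any fold, 7 members were higher in A549, and limma voom on the recovered reads called 0 higher. Counts at an unadjusted p, by limma voom or under other settings, here and below, have no share of all genes beside them. They are limits on the counts of the main fit and no result about the members. At an adjusted p under 0.05 and any fold, 5 members were higher and 21 lower in H460, where 27.6% and 41.5% of all genes passed. The same rule gave 6 higher and 26 lower in A549, where 30.5% and 27.0% of all genes passed. The median change over the 40 was -0.46 in H460 and -0.41 in A549 on the log2 scale.

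**Figure D1:**
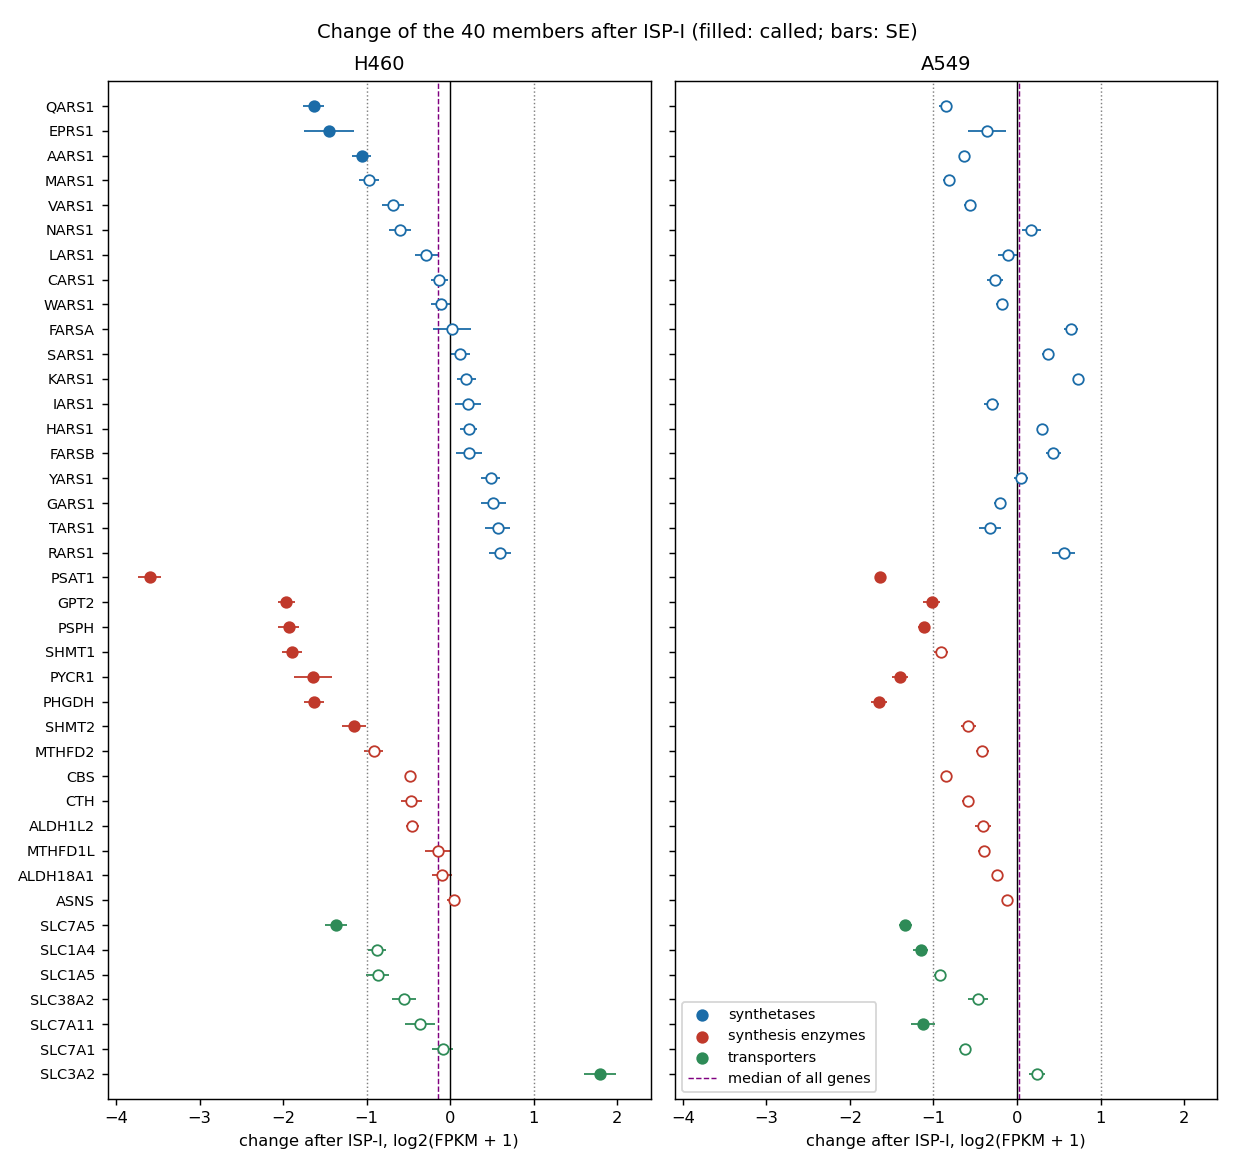
Change of each of the 40 genes after ISP-I, as the difference of mean log2(FPKM + 1) between 3 ISP-I and 3 control libraries, in H460 (left) and A549 (right), with bars of 1 standard error. Filled points were called, dotted lines mark a 2-fold change and the dashed line is the median of all genes tested. Red synthesis enzymes lie left of 0 in both lines, apart from ASNS in H460 at 0.040, blue synthetases lie on either side of 0, and SLC3A2 alone lies beyond the dotted line on the right, in H460.

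By class, the synthesis enzymes had 7 called lower and none higher of 14 in H460, with a median of -1.03, and 5 lower and none higher in A549, with a median of -0.72. No synthesis enzyme was higher at an unadjusted p under 0.05 in either line, and limma voom called 8 lower and 0 higher in each. The transporters had 1 higher and 1 lower of 7 in H460, with a median of -0.55, and 3 lower and 0 higher in A549, with a median of -0.92, where 1 was higher at an unadjusted p under 0.05 and limma voom called 0 higher. The synthetases had 3 lower and 0 higher of 19 in H460, with a median of 0.023, and none called in A549, with a median of -0.18. At an unadjusted p under 0.05, H460 had 4 synthetases higher and 6 lower, A549 had 6 higher and 9 lower, and limma voom called 2 lower and 0 higher in H460 and none in A549. Scaling by median-of-ratios moved the H460 medians to -0.77 for synthesis enzymes, -0.28 for transporters and 0.30 for synthetases, and without H460 control library 1 that of the synthetases was -0.083. Summed per library, the synthesis enzymes went from 405 ± 13.5 to 158 ± 16.8 FPKM in H460 (mean ± SD, n = 3) and from 339 ± 12.2 to 166 ± 3.05 in A549. The synthetases summed to 798 ± 18.5 and 751 ± 23.1 FPKM in H460 and to 649 ± 30.8 and 666 ± 7.67 in A549. The sums of the synthesis enzymes did not overlap, with a lowest control value of 391 FPKM in H460 and 329 in A549 and a highest ISP-I value of 169 and 168. The transporters summed to 466 ± 12.8 and 558 ± 76.1 FPKM in H460 and to 917 ± 56.2 and 547 ± 3.09 in A549. These sums lean on single genes. In H460 the mean of SLC3A2 went from 104 to 365 FPKM, and the other 6 transporters had negative log2 changes. In A549 the mean of SLC7A5 went from 537 to 212 FPKM.

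PHGDH, PSAT1 and PSPH, the enzymes of the serine route, fell in both lines, and PSAT1 fell furthest in H460. PHGDH (chromosome 1, 119648411 to 119744218, hg38), which oxidizes 3-phosphoglycerate in the step that commits carbon to serine, was at 17.2, 20.9 and 17.1 FPKM in the H460 controls and 5.40, 4.85 and 5.55 FPKM with ISP-I. In A549 it was at 5.28, 6.33 and 6.20 FPKM in controls and 1.31, 1.04 and 1.26 with ISP-I. The groups did not overlap in either line, and the changes were -1.63 (SE 0.12, limma adjusted p 7.16e-06) in H460 and -1.65 (SE 0.094, limma adjusted p 4.49e-06) in A549 on the log2 scale. PSAT1 (chromosome 9, 78297125 to 78330093), the aminotransferase that follows, was at 131, 125 and 105 FPKM in H460 controls and 8.04, 8.98 and 10.1 FPKM with ISP-I. In A549 its controls were at 126, 127 and 120.3 FPKM and its ISP-I libraries at 39.01, 40.1 and 38.8. Control means were 120.5 ± 13.7 FPKM in H460 and 124 ± 3.64 in A549 (SD, n = 3), and the ISP-I mean was 0.0749 of the control mean in H460 and 0.316 in A549. The log2 change was -3.60 (SE 0.14, limma adjusted p 3.44e-07) in H460, the largest of any member, and -1.64 (SE 0.061, limma adjusted p 7.03e-07) in A549. The change in H460 was lower than that in A549 by the interaction of line and treatment, -1.96 (SE 0.14, limma adjusted p 5.07e-07).

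PSPH (chromosome 7, 56011051 to 56051604), the phosphatase that releases serine, was at 6.47, 8.44 and 6.78 FPKM in H460 controls and 1.07, 1.11 and 1.24 FPKM with ISP-I. In A549 it stood higher, at 26.2, 26.1 and 28.7 FPKM in controls and 11.9, 12.7 and 11.3 with ISP-I. No ISP-I library reached a control library of its line, and the log2 change was -1.94 (SE 0.12, limma adjusted p 3.27e-06) in H460 and -1.11 (SE 0.074, limma adjusted p 9.59e-06) in A549. PSPH has a pseudogene copy with which it may share reads. Before treatment the lines differed in the route: PHGDH was higher in H460 (log2 difference 1.48) and PSPH lower (-1.77) with limma adjusted p values of 6.41e-06 and 1.89e-06, from the same control libraries that enter the treatment comparisons. Of the 40 members, 2 were higher in H460 controls, beside 5.64% of all 13532 genes tested, and 2 were lower, beside 8.78%; CTH and SLC7A5 were the others.

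Of the glycine and folate enzymes, the SHMT pair fell in H460. SHMT1 (chromosome 17, 18327860 to 18363563), the cytosolic serine hydroxymethyltransferase, was at 14.6, 17.1 and 15.5 FPKM in H460 controls and 3.32, 3.30 and 3.92 FPKM with ISP-I. In A549 it was at 15.2, 15.1 and 17.6 FPKM in controls and 8.43, 8.09 and 7.50 with ISP-I. Groups were apart in both lines, with a log2 change of -1.89 (SE 0.12, limma adjusted p 2.77e-06) in H460, and of -0.91 (limma adjusted p 4.77e-05) in A549, under the 2-fold limit there. SHMT2 (chromosome 12, 57229573 to 57234935), its mitochondrial counterpart, was at 81.2, 84.5 and 83.4 FPKM in H460 controls and 39.4, 30.1 and 42.001 FPKM with ISP-I. In A549, SHMT2 was at 40.1, 38.8 and 47.3 FPKM in controls and 28.03, 29.1 and 25.9 with ISP-I. Its log2 change was -1.15 (SE 0.15, limma adjusted p 0.000147) in H460, which fell short of 2-fold under median-of-ratios scaling (-0.88), limma voom (-0.89) and removal of the GC trend (-0.68), and -0.58 in A549, not called. MTHFD2, the mitochondrial methylenetetrahydrofolate dehydrogenase, had means of 19.5 and 9.92 FPKM in H460 and 11.99 and 8.74 FPKM in A549, with log2 differences of -0.92 and -0.41 that passed the adjusted p but not 2-fold. Of its exon bases, 14.2% overlap genes on the other strand, and whether counting used strand is not stated. MTHFD1L, the mitochondrial formyltetrahydrofolate synthetase, had log2 differences of -0.15 in H460 (limma adjusted p 0.396) and -0.40 in A549. ALDH1L2 was low, at 0.723 and 0.261 FPKM in H460 and 1.03 and 0.519 FPKM in A549, and was not called in either line, although in H460 it was called lower with a pseudocount of 0.1 (-1.21) and by limma voom (-1.20), against -0.45.

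**Figure D2:**
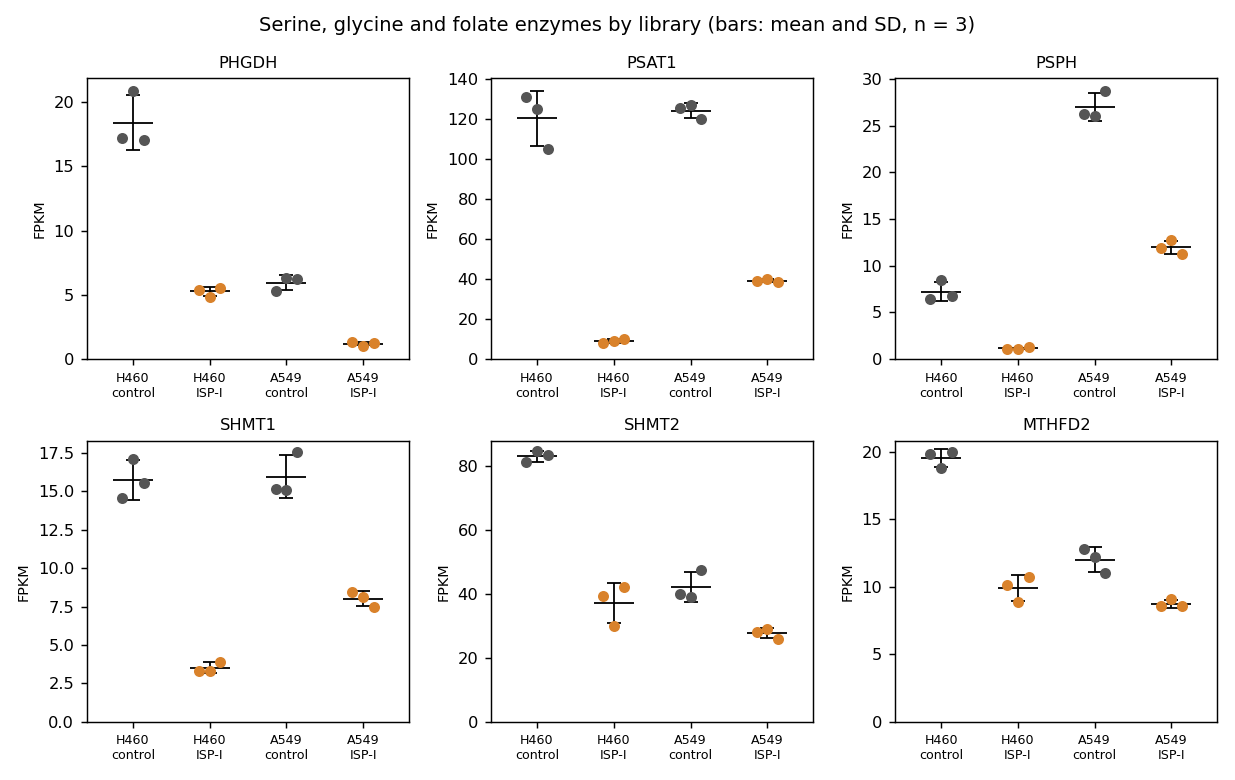
FPKM of PHGDH, PSAT1, PSPH, SHMT1, SHMT2 and MTHFD2 in each of the 12 libraries, 3 per group, with the group mean and 1 SD; the axes start at 0 and differ between genes. In every gene and in both lines, each ISP-I library (orange) lies under each control library (grey) of the same line.

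PYCR1 and GPT2, of proline and alanine synthesis, fell in both lines. PYCR1 (chromosome 17, 81932384 to 81942412), which makes proline in mitochondria, was at 45.9, 50.6 and 56.1 FPKM in H460 controls and 13.9, 11.4 and 23.5 FPKM with ISP-I, where library 3 stood well above the other two. In A549 it was at 36.2, 38.8 and 46.6 FPKM in controls and 14.4, 15.5 and 14.1 with ISP-I. The groups stayed apart, with log2 changes of -1.64 (SE 0.23, limma adjusted p 0.000286) in H460 and -1.40 (SE 0.098, limma adjusted p 1.23e-05) in A549. Genes on the other strand overlap 15.6% of the exon bases of PYCR1 and genes on the same strand 14.1%, although none of its main transcript lies in the latter. ALDH18A1, which feeds the same route with pyrroline carboxylate, was not called, with means of 61.9 and 57.9 FPKM in H460 and 44.5 and 37.6 FPKM in A549. GPT2 (chromosome 16, 46884362 to 46931289), the mitochondrial alanine aminotransferase, was at 7.48, 7.12 and 6.49 FPKM in H460 controls and 1.06, 1.06 and 1.06 FPKM with ISP-I. In A549 it was at 5.81, 6.58 and 7.62 FPKM in controls and 2.99, 2.81 and 2.50 with ISP-I. Control and ISP-I libraries were again apart, and the log2 change was -1.96 (SE 0.10, limma adjusted p 1.39e-06) in H460 and -1.02 (SE 0.10, limma adjusted p 8.88e-05) in A549. The A549 value lay at the 2-fold limit and dropped under it without control library 3 (-0.93), without ISP-I library 3 (-0.97) and with the GC trend removed (-0.95).

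The transsulfuration enzymes, which pass sulfur from homocysteine to cysteine, were low and not called, although CBS had few reads left after ISP-I. CBS was at 0.471, 0.524 and 0.445 FPKM in H460 controls and 0.0742, 0.0708 and 0.0298 FPKM with ISP-I, that is 45 to 54 reads against 3 to 9. In A549 it was at 0.829, 0.932 and 0.958 FPKM and 0.0987, 0.0282 and 0.0514 FPKM, 80 to 96 reads against 3 to 10. The groups were apart in both lines, and the differences of -0.48 (limma adjusted p 0.000106) and -0.85 (limma adjusted p 1.29e-05) on the log2(FPKM + 1) scale are small because that scale compresses values under 1 FPKM. With a pseudocount of 0.1 they were -1.88 and -2.68, and by limma voom -2.73 and -4.02, called lower in each case. With the GC trend removed, at the pseudocount of 1, the H460 difference was 0.028 (limma adjusted p 0.803) and the A549 difference -0.76. That trend was fitted on genes averaging at least 1 FPKM, above the level of CBS, so the last fit cannot show whether CBS changed. The near-identical copy CBSL, with which CBS can share reads, had means of 0.633 and 0.0536 FPKM in H460 and 0.155 and 0.0169 FPKM in A549, so the level of either is uncertain. CTH, the next enzyme, had means of 6.09 and 4.14 FPKM in H460 and 0.910 and 0.270 FPKM in A549, and its control level was higher in H460 by 1.89 on the log2 scale (limma adjusted p 4.16e-07). CTH was called lower in A549 with a pseudocount of 0.1 (-1.48) and by limma voom (-1.80).

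ASNS, the asparagine synthetase and a standard ATF4 target, could not be read here. It had 1 to 30 reads per library and group means of 0.266, 0.305, 0.178 and 0.0890 FPKM in H460 control, H460 ISP-I, A549 control and A549 ISP-I. In GENCODE v44, 99.5% of its main transcript lies in exons of a lncRNA annotated on the same strand, and how reads shared by both were counted is not stated.

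Among the transporters, SLC3A2 and SLC7A5, which together form the LAT1 exchanger of large neutral amino acids, went opposite ways in H460. SLC7A5 (chromosome 16, 87830023 to 87869507), the transporting chain, was at 158, 176 and 179 FPKM in H460 controls and 73.6, 61.6 and 62.8 FPKM with ISP-I. In A549 it was at 503, 532 and 576 FPKM in controls and 216, 209.7 and 210.5 with ISP-I. Every ISP-I library was under every control library of its line, and the log2 changes were -1.36 (SE 0.13, limma adjusted p 3.1e-05) in H460 and -1.33 (SE 0.079, limma adjusted p 5.32e-06) in A549. With the GC trend removed the H460 value was -0.83, under the 2-fold limit. SLC7A5 was also lower in H460 controls than in A549 controls, by -1.65 on the log2 scale (limma adjusted p 2.45e-06).

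SLC3A2 (chromosome 11, 62856102 to 62888875), the CD98 heavy chain that holds LAT1 and several other exchangers at the membrane, was at 102, 117 and 91.9 FPKM in H460 controls and 343, 293 and 459 FPKM with ISP-I. In A549 it was at 187, 179 and 228 FPKM in controls and 227, 233 and 237 with ISP-I. All H460 ISP-I libraries were above the controls and library 3 was highest, whereas in A549 control library 3 exceeded an ISP-I library and the groups overlapped. SLC3A2 rose in H460, by 1.79 (SE 0.19, limma adjusted p 5.69e-05), and in A549 the difference was 0.24 (SE 0.099, limma adjusted p 0.0708). The difference between the lines, 1.55 (SE 0.23, limma adjusted p 0.000113), ranged from 1.27 to 1.98 over 21 fits under different settings. Per library, the ratio of SLC3A2 to SLC7A5 in FPKM was 0.513 to 0.664 in H460 controls and 4.67 to 7.31 with ISP-I, and 0.337 to 0.396 in A549 controls and 1.05 to 1.12 with ISP-I. The ratio thus lay above its controls in every ISP-I library of both lines. SLC3A2 and SLC7A1 are the transporters in the table whose windows hold the motif printed above, and SLC7A1 was not called in either line.

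**Figure D3:**
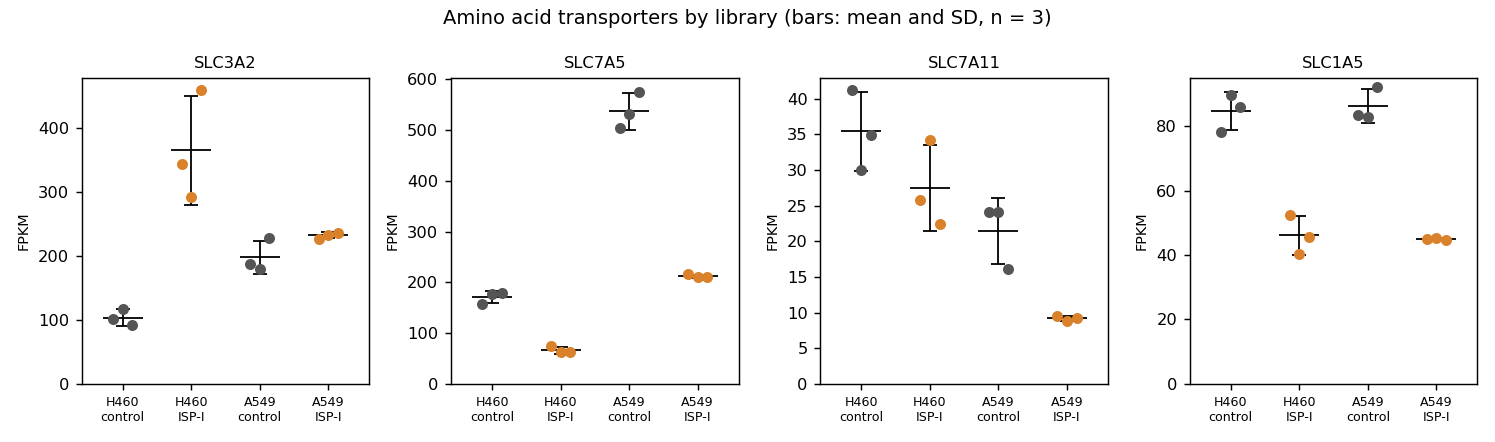
FPKM of SLC3A2, SLC7A5, SLC7A11 and SLC1A5 in each library, 3 per group, with the group mean and 1 SD; the axes start at 0 and differ between genes. SLC3A2 is higher with ISP-I in H460 and its groups overlap in A549, SLC7A5 and SLC1A5 are lower in both lines, and the H460 groups of SLC7A11 overlap.

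SLC7A11 and SLC1A4 were called lower in A549 and not in H460. SLC7A11 (chromosome 4, 138164097 to 138242349), which imports cystine in exchange for glutamate, was at 24.1, 24.1 and 16.2 FPKM in A549 controls and 9.55, 8.81 and 9.16 FPKM with ISP-I. In H460 it was at 41.2, 30.04 and 34.95 FPKM in controls and 25.9, 34.2 and 22.4 with ISP-I. The A549 groups were apart and the H460 groups overlapped, with log2 values of -1.12 (SE 0.14, limma adjusted p 0.000291) and -0.36 (SE 0.18, limma adjusted p 0.101). Their difference, 0.76 (limma adjusted p 0.022), was under the limit of 1 set for the interaction. SLC1A4 (chromosome 2, 64988477 to 65023865), a carrier of alanine, serine and cysteine, was at 5.73, 5.94 and 6.62 FPKM in A549 controls and 2.46, 2.11 and 1.999 FPKM with ISP-I. In H460 it was at 8.05, 8.48 and 7.78 FPKM and 4.41, 3.83 and 3.68 FPKM. It fell in A549, by 1.15 on the log2 scale (SE 0.09, limma adjusted p 2.13e-05), and in H460 the value of -0.88 (SE 0.11) did not reach 2-fold; the difference between the lines was 0.28 (limma adjusted p 0.0843). SLC1A5, the main glutamine carrier, was not called in either line, at -0.87 and -0.92, with means of 84.8 and 46.1 FPKM in H460 and 86.3 and 44.9 FPKM in A549. Its H460 value was -0.33 with the GC trend removed, and its A549 value was called under quantile normalization (-1.002). Genes on the other strand overlap 23.8% of the exon bases of SLC1A5. SLC38A2, a sodium-coupled carrier of small neutral amino acids, had log2 differences of -0.55 and -0.46, and SLC7A1, the cationic amino acid carrier, -0.089 and -0.62; neither was called. Under median-of-ratios scaling SLC38A2 was at -0.28 in H460 (limma adjusted p 0.103).

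Of the cytosolic synthetases, QARS1, EPRS1 and AARS1 fell in H460. QARS1 (chromosome 3, 49095932 to 49105130), which loads glutamine, was at 42.3, 48.6 and 45.8 FPKM in H460 controls and 14.8, 12.03 and 15.3 FPKM with ISP-I. In A549 it was at 32.2, 32.03 and 36.2 FPKM in controls and 17.2, 18.6 and 18.4 with ISP-I. The groups were apart in both lines, with a change of -1.64 (SE 0.13, limma adjusted p 9.29e-06) in H460 and -0.85 (SE 0.074, limma adjusted p 3.46e-05) in A549, under 2-fold there. AARS1 (chromosome 16, 70251983 to 70289707), the alanine enzyme, was at 32.7, 35.7 and 33.9 FPKM in H460 controls and 17.6, 14.8 and 15.3 FPKM with ISP-I. In A549 it was at 40.2, 41.8 and 43.998 FPKM and 27.2, 26.6 and 26.4 FPKM. Here too no library crossed between the groups, and the log2 changes were -1.06 (SE 0.12, limma adjusted p 5.84e-05) and -0.63 (SE 0.063, limma adjusted p 7.57e-05). The AARS1 value in H460 was close to the limit and fell short of it under median-of-ratios scaling (-0.79), limma voom (-0.82) and removal of the GC trend (-0.68).

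EPRS1 (chromosome 1, 219968600 to 220046530), which joins glutamate and proline to their tRNAs in 1 protein, spread widely within groups. It was at 57.1, 36.2 and 46.2 FPKM in H460 controls and 17.9, 23.9 and 9.57 FPKM with ISP-I. In A549 it was at 43.04, 46.5 and 23.3 FPKM in controls and 26.4, 28.9 and 28.5 with ISP-I. The H460 groups did not overlap, although ISP-I library 3 was far under the other two, and in A549 control library 3 lay under all ISP-I libraries. The log2 change was -1.45 (SE 0.30, limma adjusted p 0.00249) in H460 and stayed called in all 15 fits run for this line, from -1.73 to -1.11. In A549 the value was -0.36 (limma adjusted p 0.205), and it ranged from -0.18 without control library 2 to -0.66 (limma adjusted p 3.18e-06) without control library 3, with -0.23 without control library 1 and -0.44 with the GC trend removed. The difference between the lines, -1.09 (SE 0.43, limma adjusted p 0.0473), was no longer called without A549 control library 3 (-0.79, adjusted p 0.102), without H460 ISP-I library 3 (-0.75, adjusted p 0.0791) or without both (-0.45, adjusted p 0.106), the last of these chosen after seeing the data. It stayed called with the GC trend removed (-1.002, adjusted p 0.0248). It was likewise not called without A549 ISP-I library 1, 2 or 3 or without H460 control library 1 or 3 or ISP-I library 1, with limma adjusted p values of 0.0618 to 0.109.

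In some libraries the deviation from the group ran with GC content. Of the members, 14 have transcripts under 45% GC, EPRS1 among them at 42.3%. In A549 control library 3 these 14 deviated from the mean of the other control libraries by a median of -0.36 on the log2 scale, and the other 26 by 0.15. In H460 ISP-I library 3 the medians were -0.25 and -0.0070. Across the 40 members, Pearson's r between GC content and that deviation was 0.79 in the former and 0.52 in the latter, and over 10584 genes 0.64 and 0.41; these describe genes within a library, which are not independent. H460 control libraries 1 and 2 and H460 ISP-I library 2 deviated with GC as well, with r of -0.73, 0.63 and -0.71 over the members. The part of GC content in each result was not tested beyond the fit with the GC trend removed. That fit took each library's trend from its deviation from the mean of all 12 libraries. It therefore also removes any GC trend that goes with treatment or line, and cannot tell such a change from a technical one. In that fit 8 members were called lower in H460, beside SLC3A2 called higher, and 7 were called lower in A549.

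**Figure D4:**
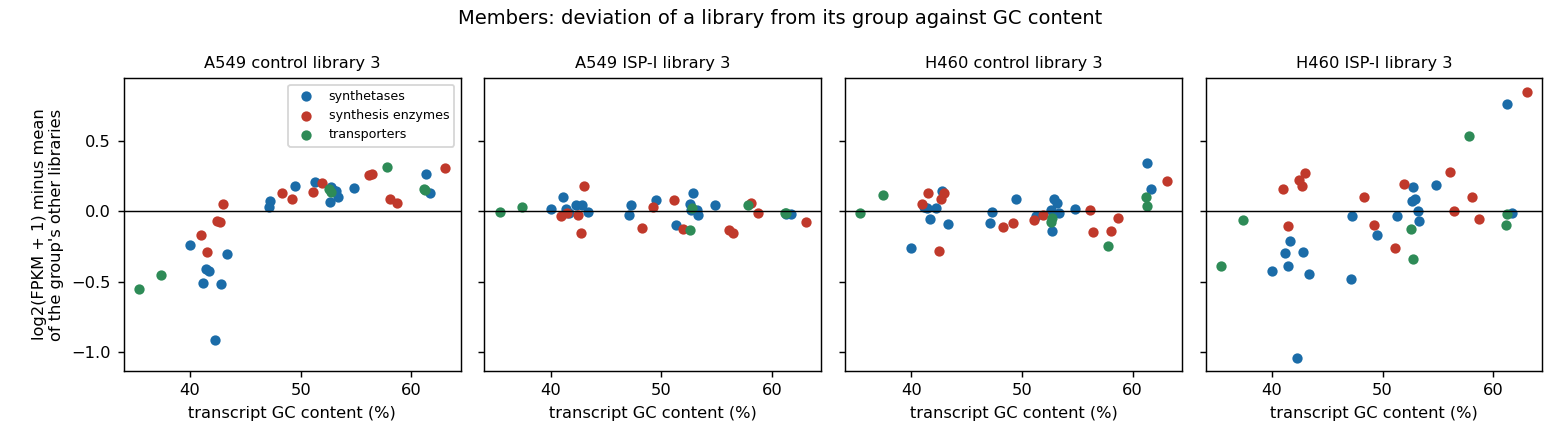
Deviation of library 3 of each group from the mean of the group's other libraries, on the log2(FPKM + 1) scale, against the GC content of the transcript, for the 40 genes coloured by class. Most genes under 45% GC lie under 0 in A549 control library 3, with EPRS1 lowest at 42.3% GC; H460 ISP-I library 3 spreads more, and A549 ISP-I library 3 stays near 0.

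The other 16 synthetases were not called in either line. MARS1, for methionine, came nearest, with means of 48.04 and 24.02 FPKM in H460 and 43.7 and 24.3 FPKM in A549 (log2 -0.97 and -0.82). In H460, MARS1 was called lower without control library 1 (-1.02) or ISP-I library 1 (-1.04), and was at -0.60 with the GC trend removed. Genes on the other strand overlap 12.4% of the exon bases of MARS1. VARS1 and, in H460, NARS1 were also lower at an adjusted p under 0.05, by 0.68 and 0.60 on the log2 scale in H460, and VARS1 by 0.57 in A549. With the GC trend removed VARS1 was at -0.15 in H460 (limma adjusted p 0.253), and under median-of-ratios scaling it was at -0.41 and NARS1 at -0.33 (limma adjusted p 0.0501). On the other side, RARS1, TARS1, GARS1 and YARS1 passed the adjusted p upward in H460 with log2 differences of 0.59, 0.57, 0.51 and 0.48. In A549 the largest upward values were those of KARS1, which loads lysine (0.73, from 64.99 to 108 FPKM), FARSA, the alpha chain of the phenylalanine enzyme (0.65), and RARS1 (0.56). FARSB, the beta chain, had 0.44 in A549, and in H460 neither chain passed the adjusted p. TARS1 and GARS1 had opposite signs in the lines, with -0.32 and -0.21 in A549, and the differences between the lines of 0.89 and 0.72 (limma adjusted p 0.00369 and 0.00263) were under the limit of 1 in the main fit but called under median-of-ratios scaling and limma voom. CARS1, HARS1, IARS1, LARS1, SARS1 and WARS1 lay between -0.29 and 0.22 in H460, and none passed the adjusted p there.

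The members with the TGATGNAA match did not move as a block. Of these 10, AARS1 was called lower and SLC3A2 higher in H460, with a median log2 change of -0.11 and a range of -1.06 to 1.79, and none was called in A549, with a median of -0.31. Of the 21 members in the table without the match, 6 were called lower in H460 and 4 in A549, with medians of -0.48 and -0.41. The 9 members not in the table had medians of -0.68 and -0.58, with 4 called lower in each line. Synthetases make up 6 of the 10 with the match, so match and class were not separated. Of all genes tested, 15.2% were called lower in H460 and 3.51% in A549. PHGDH, PSAT1 and SHMT1 were among those 21.

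Across the lines, 6 members were called lower in both: PHGDH, PSAT1, PSPH, PYCR1, GPT2 and SLC7A5. Of the 12708 genes tested in both lines, 2.43% were called lower in both and 2.78% higher in both, against 0 members higher in both. AARS1, EPRS1, QARS1, SHMT1 and SHMT2 were called lower in H460 and not in A549, SLC7A11 and SLC1A4 the reverse, and no member was called in opposite directions. SHMT1 was called lower in A549 as well by limma voom (-1.02), and SLC1A4 in H460 as well with a pseudocount of 0.1 (-1.01). A call in 1 line alone is no test of a difference. The interaction called 1 member higher in H460 than in A549, SLC3A2, beside 5.93% of all 13953 genes tested, and 2 lower, PSAT1 and EPRS1, beside 10.1%. SHMT1, GPT2, PSPH and QARS1 had interaction values of -0.98, -0.94, -0.82 and -0.78, which passed the adjusted p (limma, 6.82e-05, 0.000122, 0.000335 and 0.000585) but not the limit of 1. For PHGDH and SLC7A5 the difference was 0.026 (SE 0.14) and -0.027 (SE 0.14).

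The mitochondrial synthetases, 16 genes of the nucleus that load tRNAs inside mitochondria and are not among the 40, are set beside the cytosolic ones. In H460, 4 were called lower and 0 higher, beside 15.2% and 10.5% of all genes, with a median log2 change of -0.59. In A549 limma called 0 of 15 tested, beside 3.51% of all genes called lower and 4.20% higher, with a median of 0.047. At an unadjusted p under 0.05, 4 were higher in H460, and 5 were higher and 2 lower in A549. Limma voom called 1 higher in each line and 0 lower in A549. IARS2 (chromosome 1, 220094132 to 220148041), for isoleucine, was at 109, 96.2 and 91.3 FPKM in H460 controls and 39.7, 36.5 and 29.9 FPKM with ISP-I. In A549, IARS2 was at 61.9, 59.5 and 49.9 FPKM in controls and 43.5, 40.9 and 40.4 with ISP-I. No library crossed between the groups of a line, with log2 values of -1.46 (SE 0.14, limma adjusted p 3.24e-05) in H460 and -0.44 in A549. AARS2, NARS2 and TARS2 also fell in H460, by 1.38, 1.28 and 1.10 on the log2 scale, and in A549 their values were -0.18, -0.16 and -0.059. The cytosolic counterparts of IARS2, AARS2, NARS2 and TARS2 had values of 0.21, -1.06, -0.60 and 0.57 in H460.

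The interaction was negative for all 15 mitochondrial synthetases tested, beside 60.9% of all genes, with a median of -0.79 beside -0.16, and 4 were called lower in H460, beside 10.1% of all genes. Under median-of-ratios scaling 11 were negative and 0 were called, with 9 at an unadjusted p under 0.05, and with the GC trend removed 12 were negative and 0 were called, with 10 at that p. Limma voom called 2, as did the fit without H460 ISP-I library 2. Quantile normalization called 0, with 9 at an unadjusted p under 0.05. In H460 alone the count of 4 became 3 under median-of-ratios scaling and limma voom and 2 with the GC trend removed. Of AIMP1, AIMP2 and EEF1E1, other parts of the multi-synthetase complex, none was called in either line by limma, 1 was higher at an unadjusted p under 0.05 in H460 and 2 in A549, and limma voom called 1 higher in H460. AIMP2 had 0.26 in H460 and 0.85 in A549, and genes on the other strand overlap 29.1% of its exon bases. Of the transcript of EEF1E1, 37.5% lies in another gene of the same strand, as does 77.6% of SARS2 and 100% of VARS2, whose levels are therefore uncertain.

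**Figure D5:**
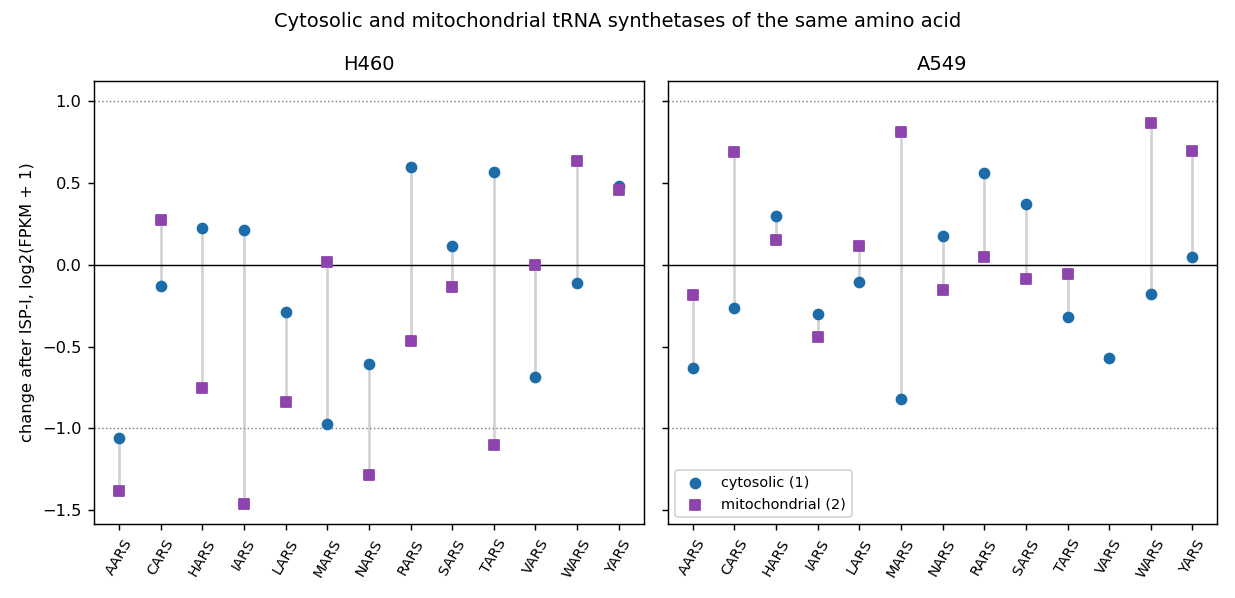
Log2 change after ISP-I of the cytosolic (circle) and mitochondrial (square) synthetase of the same amino acid, 13 pairs, in H460 (left) and A549 (right); dotted lines mark a 2-fold change, and VARS2 was too low to be tested in A549. IARS and TARS show wide gaps in H460, from 0.21 to -1.46 and from 0.57 to -1.10, and the squares of H460 reach lower than those of A549.

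Other genes of the same pathways, from lists written from general knowledge with earlier results of these data known, are given by list. Beside their counts in the main fit stand 10.5% of all genes called higher and 15.2% lower in H460. In A549 these shares were 4.20% and 3.51%. Of the other serine, glycine and folate genes, 1 fell and 0 rose of 8 tested in H460 and limma called 0 of 9 in A549. At an unadjusted p under 0.05, 2 were higher in each line and 3 lower in A549, and of the A549 genes limma voom called 1 lower and 0 higher, against 2 in each direction for H460. SFXN3, a mitochondrial serine carrier, fell from 24.9 to 6.63 FPKM in H460 (-1.76). Of the other synthesis and breakdown genes, 4 fell and 0 rose of 15 in H460, where 3 were higher at an unadjusted p under 0.05. Limma voom called 3 lower and 0 higher there. MAT2A, which makes S-adenosylmethionine, and the branched-chain enzymes BCAT2 and BCKDHB fell by 2.08, 1.91 and 1.62 on the log2 scale in H460. PYCR3, of proline synthesis, fell by 1.06 there, close to the 2-fold limit. In A549, 1 rose and 1 fell of 16: GLUL, the glutamine synthetase (1.01), and BCKDHB (-1.01). Of the other transporters, 2 rose and 2 fell of 15 in H460, and 1 rose and 1 fell of 14 in A549. SLC6A9, the glycine transporter GLYT1, fell in both lines, by 1.28 and 1.30 on the log2 scale. SLC7A2, for cationic amino acids, fell in H460 from 22.3 to 7.62 FPKM, and SLC43A2, a carrier of large neutral amino acids, and SLC38A7, a lysosomal glutamine exporter, rose there by 1.10 and 1.09. SLC6A15, a neutral amino acid transporter, rose in A549 by 1.45.

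Of 21 regulators of the amino acid response tested, 10 rose and 4 fell in H460 and 6 rose and 1 fell in A549. By the rule of the main fit, 10.5% of all genes rose in H460 while 15.2% fell. For A549, 4.20% of all genes rose while 3.51% fell. PPP1R15A, which directs the dephosphorylation of eIF2α, rose by 6.34 in H460 and 3.68 in A549, DDIT3 (CHOP) by 3.42 and 3.01, and DDIT4 fell by 3.04 and 1.12 on the log2 scale. Genes on the other strand overlap 31.6% of the exon bases of DDIT3, with 27.2% in MARS1, and whether counting used strand is not stated. ATF4 RNA, named after its values were seen, was at 175 and 356 FPKM in H460 (0.94, not called) and at 129 and 278 FPKM in A549 (1.11, called).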

How the data were processed

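RNA of 12 libraries, 3 each of H460 and A549 without treatment or with ISP-I (10 µM, 48 h), was prepared with the TruSeq RNA kit and sequenced as paired ends. By the methods and the submitters' processing notes, the authors used FastQC for filtering, HISAT2 for mapping to hg38 and HTSeq 0.9.1 for counting, and deposited FPKM. The annotation version and strand setting are not given in the sources used here. Lines without a gene ID (4) were left out. Columns were tied to groups by line and treatment, and a library's number is its order within the group.

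Whole reads recovered from FPKM (tolerance 0.05 reads) numbered 14225849 to 17874422 per library, and genes with few reads, such as ASNS and CBS, are imprecise at that depth. No library repeated another: the excess over read sampling (chi-square per degree of freedom) was 3.03 to 98.7 between libraries of a group. In each line limma 3.58.1 (R 4.3.3) with a trend was fitted to log2(FPKM + 1) for genes averaging 0.1 FPKM or more, with Benjamini-Hochberg adjustment over all of these. All 12 libraries entered the interaction, and the untreated lines were also compared. Genes were called at over 2-fold and adjusted p under 0.05. The pseudocount of 1 shrinks differences of genes at or below 1 FPKM. The fits were tested on simulated data.

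Overlaps and transcript GC content came from GENCODE v44, where 37 of the members have the start and end given in the table, and promoters from RefSeq (GRCh38.p14). Full statistics went to called members (up to 4 rises and 4 falls per class and line) and to called interactions. Other pathway genes were named where called, at most 4 per list and line. Some genes of those lists are not reported here and were left out of the list counts. Members, lists and tests were chosen with earlier results of these data known. The settings varied were the pseudocount (0.1), the filter (1 FPKM or none), the scaling (median-of-ratios, quantile), the test (limma voom on reads, at least 10 in 3 libraries; any fold), the joint fit of 12 libraries and each library left out. The GC trend of each library (lowess, span 0.3) and leaving out 2 libraries at once were added after seeing the data. The trend was fitted to deviations from the mean of all 12 libraries, over genes averaging at least 1 FPKM. Software was Python 3.11.15 with pandas 2.3.3, numpy 2.4.6 and matplotlib 3.10.9.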

Additional observations from a re-analysis of the deposited data

Results flagged for a closer look

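The change after ISP-I differed between H460 and A549 for 3 of 40 members and 4 of 15 mitochondrial synthetases tested. This was by the interaction of line and treatment (limma on all 12 libraries, Benjamini-Hochberg adjusted p under 0.05 and a difference over 1 on the log2 scale). The same rule called the change higher in H460 for 5.93% of all 13953 genes tested and lower for 10.1%. PSAT1 fell further in H460, with a difference of -1.96, and the value stayed called in all 21 fits, from -2.06 to -1.67. SLC3A2 rose in H460 and was not called in A549 (0.24, limma adjusted p 0.0708). Its difference between the lines was 1.55, called in the same 21 fits. EPRS1 had a difference of -1.09, and the call was lost in most alternatives but kept with the GC trend removed. AARS2, NARS2, TARS2 and IARS2 had differences of -1.20, -1.13, -1.04 and -1.02, and none of these 4 was called under median-of-ratios scaling, quantile normalization or with the GC trend removed. Groups of 3 are too small for the test of single libraries far from the rest.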

How the results depend on the processing

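No paired analysis was possible because the columns of the table carry no replicate number of the labels, so libraries of different groups could not be matched. The counts of members called in H460 (1 higher, 11 lower) and A549 (0 and 8) stayed within 1.5 times under every alternative that kept the 2-fold rule. Leaving out a library gave 1 higher and 11 to 12 lower in H460, and 0 higher and 7 to 8 lower in A549. At any fold they were 5 and 21 in H460 and 6 and 26 in A549, by construction. For the difference between the lines, 1 member was higher and 2 lower in H460. Lower members numbered 5 with a pseudocount of 0.1 (PSPH, SHMT1 and GPT2 joined), and 1 without a filter, under median-of-ratios scaling and under quantile normalization, where EPRS1 was lost. Higher members numbered 4 under median-of-ratios scaling, 5 under limma voom and 3 without libraries A549 control 3 and H460 ISP-I 3, with TARS1 and SLC7A11 joining SLC3A2 in each. Leaving out a library gave 1 to 2 higher, with 2 without A549 control library 3, and 1 to 3 lower. The cause of these shifts was not tested.

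Values that were not called changed sign as follows, all in H460 but the last. Under median-of-ratios scaling, quantile normalization, limma voom and GC removal, CARS1 came to 0.10, 0.098, 0.12 and 0.24. Under median-of-ratios scaling, limma voom and GC removal, WARS1 came to 0.16, 0.17 and 0.16, MTHFD1L to 0.11, 0.12 and 0.17, ALDH18A1 to 0.18, 0.18 and 0.16, and SLC7A1 to 0.18, 0.19 and 0.27. FARSA (0.023) came to -0.003 under quantile normalization, and leaving out a library moved it from -0.23 to 0.22, with -0.083 without control library 1 and -0.23 without ISP-I library 3. Leaving out a library moved SLC7A1 (-0.089) from -0.15 to 0.025, the latter without ISP-I library 3, where ASNS came to -0.020. CBS, at -0.48 with an adjusted p under 0.05, came to 0.028 with GC removal. The GC trend was fitted on genes averaging at least 1 FPKM, above the level of CBS, so that change of sign says nothing about CBS. In A549, YARS1 came to -0.006 without control library 1.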

Other observations

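TRIB3, a pseudokinase induced by ATF4 and named after its values were seen, was called in opposite directions by the main fit. It was at 33.8, 36.5 and 31.96 FPKM in H460 controls and 16.7, 12.7 and 18.6 with ISP-I, and at 26.96, 27.3 and 31.96 FPKM in A549 controls and 68.01, 68.2 and 68.5 with ISP-I. The groups were apart in both lines, with log2 changes of -1.06 (limma adjusted p 0.000289) and 1.22 (limma adjusted p 7.89e-06). The H460 value lay close to the 2-fold limit. Limma voom called 13 of the regulators higher and 2 lower in H460, against 10 and 4 in the main fit. Values under other settings were not kept for single regulators. Of the eIF2α kinases, also named after seeing values, EIF2AK3 (PERK) rose in H460 by 1.22 and EIF2AK2 (PKR) and EIF2AK1 (HRI) fell by 1.78 and 1.02 on the log2 scale, and none of these 3 was called in A549, where the values were 0.21, -0.28 and -0.43. The H460 value of EIF2AK1 was also close to the 2-fold limit. EIF2AK4 (GCN2), which senses uncharged tRNA, had -0.79 (limma adjusted p 0.0021) in H460 and -0.02 in A549 and was not called.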
